A study of Mus musculus with 8 samples.

Results

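The 37 genes described here carry long-chain fatty acids into the muscle fiber and oxidize them in mitochondria, or are induced when muscle turns to fat as fuel. They were measured in muscle from mice lacking *Grsf1* in skeletal muscle (Grsf1cKO) and from WT mice. They were chosen by name, and each was represented by every non-control probe of the array whose RefSeq transcript belongs to it. All 37 of 37 were found, out of 22911 genes with a probe on the array. They were covered by 57 probes, with 1 probe for 20 genes, 2 probes for 14 genes and 3 probes for 3 genes. By limma, 0 of the 37 genes had an adjusted p under 0.05 for a difference between the genotypes, given the spread between mice. Only 3 of all 38888 tested probes (0.00771%) did. For 31 of the 37 genes the 95% interval of the difference lay within 1.5-fold in either direction, where it did so for 62.9% of all tested probes. Each gene is given there by its brightest probe, while all tested probes include dim ones.

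The mice were males aged 17 months, 3 Grsf1cKO and 3 WT, and the muscle belongs to the quadriceps (the labels name the vastus intermedius, the paper the rectus femoris). GRSF1 is an RNA-binding protein of the mitochondrial matrix. The Grsf1cKO animals descend from *Grsf1*tm1a mice whose LacZ and Neo cassettes were removed with FLPo, which left exons IV and V flanked by LoxP sites, and these exons were then deleted with Myf5Cre. This Cre acts in cells of the *Myf5*-expressing muscle lineage, so vessel and immune cells of the muscle are not its target. The controls are labeled as wild type, and the labels do not say whether they carried the LoxP sites or Cre.

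In the muscle fiber, lipoprotein lipase frees fatty acids in the capillary, transporters at the membrane take them up, and acyl-CoA synthetases activate them. The carnitine shuttle moves the acyl groups into the mitochondrial matrix, where repeated rounds of dehydrogenation, hydration, a further dehydrogenation and thiolysis shorten them to acetyl-CoA. Electrons from the first dehydrogenation pass through the electron transfer flavoprotein to ubiquinone. Slow and intermediate fibers rely on this route for lasting work. All of these genes are encoded in the nucleus.

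Cy3-labeled RNA of each mouse was read on 8 Agilent arrays of a single color, with a repeat array for Grsf1cKO 1 and for WT 1. Values are log2 signals after quantile normalization, with the arrays of a mouse averaged, and differences are Grsf1cKO minus WT on the log2 scale with n = 3 mice per genotype. Levels of different probes are not compared with each other. *Grsf1* itself was at 12.15, 12.02 and 12.08 in the Grsf1cKO mice (1, 2, 3) and at 14.30, 14.25 and 14.27 in the WT mice (1, 2, 3). That is a difference of -2.19 (SE 0.081), with an adjusted p of 0.00328 by limma, and it matches the labels. Whether its probe lies in the deleted exons was not checked. The repeat array of Grsf1cKO 1 stood apart in dim spots, with 88.9% of spots well above background against 66.3% to 73.1% on the others. Slide 1 held WT 2 and the first array of WT 1, and slide 2 held the other 6 arrays, with 3 Grsf1cKO and 2 WT mice. Defining genes of skeletal muscle (14 of 14 on the list) were well above background in all 6 mice, and in bulk muscle fewer cells of a type and less RNA per cell cannot be told apart.

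Each of the 37 genes was well above background in all 6 mice on its brightest probe, the probe by which each gene is given below, and all 57 probes were tested. By limma, 0 of the 37 had an adjusted p under 0.05, whereas 0.00771% of all 38888 tested probes (3 probes) did. At an unadjusted p under 0.05, 0 genes were higher and 0 were lower, where 1.29% of all tested probes were higher and 2.96% lower (2.57% and 0.738% with 75th percentile scaling). The smallest unadjusted p in the set was 0.0886, for *Acacb*, and adjusted p-values ran from 0.996 to 0.998. The methods' *z*-test on the same values, with all of its stated criteria, also selected 0 of the 37 genes and 131 of all tested probes (0.337%). At an unadjusted p under 0.05 alone it selected 3 genes, all lower, namely *Acacb*, *Acot2* and *Eci1*, where it selected 7.31% of all tested probes as lower and 3.52% as higher.

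The median difference of the 37 genes was -0.042, against -0.026 over all tested probes. In the set 12 genes were above 0 and 25 below, and 42.5% of all tested probes were above 0. This split depended on the scaling, since with the deposited *z*-scores 19 genes were above 0, 17 below and 1 (*Etfa*) at 0, with a median of 0.014. The difference was under 0.1 in size for 22 genes and under 0.2 for 31. The genotypes did not overlap for 0 genes in the higher direction and for 2 in the lower direction (*Acacb* and *Acot2*), among the 36 genes with a value in every mouse. Over all probes these shares were 3.08% and 6.27%. With 75th percentile scaling 0 genes were apart in the higher and 3 in the lower direction, and the shares over all probes were 4.67% and 3.51%. The median within-genotype SD of the 36 genes was 0.11, and it was 0.18 over all probes. The 95% interval lay within 1.5-fold (0.58 on the log2 scale) for 31 of 37 genes, where it did so for 62.9% of all tested probes. These intervals hold for each gene taken alone. For the SD and the interval alike, each gene is read on its brightest probe. All tested probes include dim ones, detected in as few as 3 mice. The part of signal level in the smaller SD and the larger share of intervals was not tested. Of the 17 genes with several probes, 8 had probes that differed in sign, and over the 17 the probes of a gene differed by a median of 0.073 and at most 0.25 (*Acsl6*). The 6 genes with a wider interval were *Lpl*, *Slc27a1*, *Cpt1a*, *Acadl*, *Ucp2* and *Ucp3*.

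**Figure D1:**
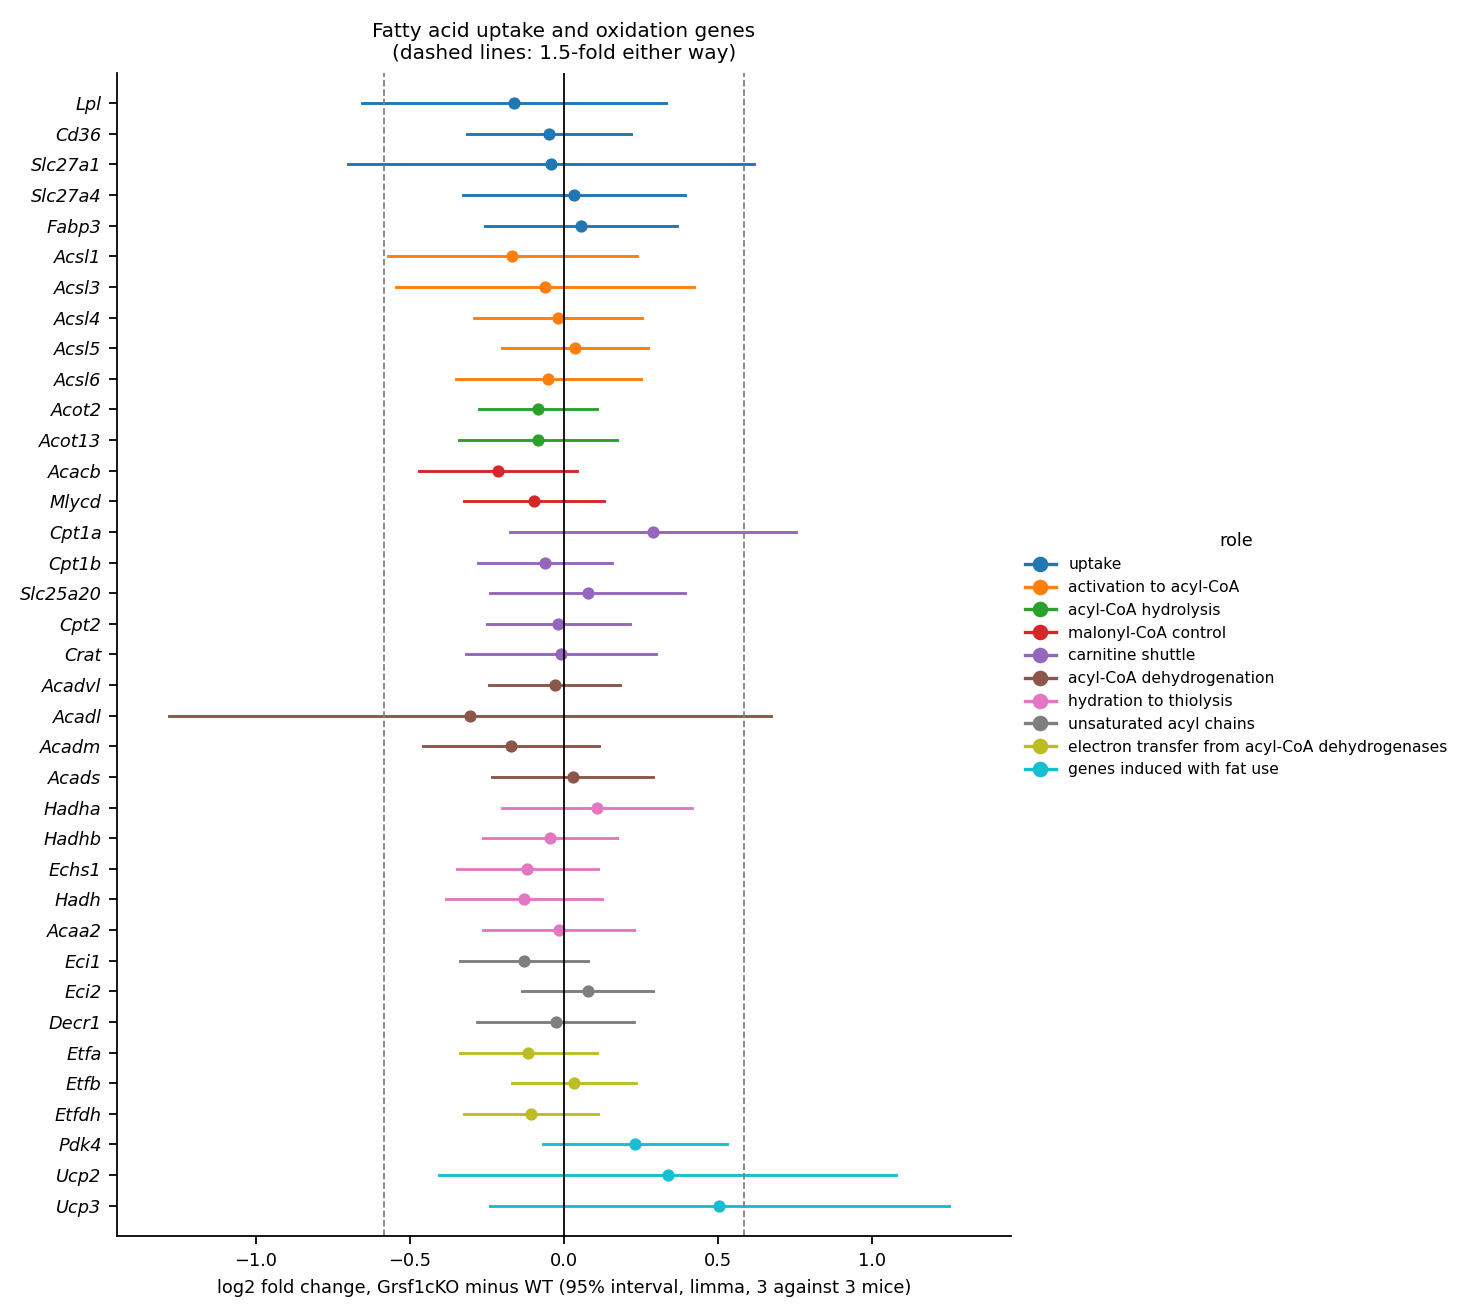
Difference of each of the 37 genes between Grsf1cKO and WT mice on the log2 scale (horizontal axis), with the point estimate and the 95% interval from limma (3 against 3 mice), in order of role. Every interval crosses 0, and 31 of 37 lie between the dashed lines at 1.5-fold; *Acadl*, *Ucp2* and *Ucp3* have the widest.

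LPL is anchored in the capillary, where it frees fatty acids from lipoproteins. In Grsf1cKO 1, 2 and 3 *Lpl* was at 15.86, 16.11 and 16.02, and in WT 1, 2 and 3 at 16.17, 16.53 and 15.78. The highest and the lowest value were both of WT mice, and the difference was -0.16 (SE 0.20, 95% interval -0.66 to 0.33, p = 0.6 by the exact permutation test). Without WT 2 *Lpl* differed by 0.021 and without WT 3 by -0.35, so its sign and size rest on these mice. Its other 2 probes gave -0.27 and -0.16, with WT 2 highest on both. Fat cells also express *Lpl*. The summed level of 10 adipocyte markers, all detected in every mouse, ranged from 17.93 to 18.32 in Grsf1cKO and from 17.86 to 18.56 in WT, and it too was lowest in WT 3. *Ucp1*, the uncoupling protein of thermogenic fat, chosen here after its values were seen, was at 10.48 in WT 1 and at 3.02 to 7.19 in the other 5 mice, on a probe well above background in 3 of the 6. The part of fat in the *Lpl* values was not tested.

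CD36 brings long-chain fatty acids across the fiber membrane. *Cd36* was at 13.89, 13.99 and 14.13 in the Grsf1cKO mice and at 14.16, 14.05 and 13.94 in the WT mice. The ranges overlap nearly whole, with a difference of -0.049 (95% interval -0.31 to 0.22). *Slc27a1* and *Slc27a4* encode fatty acid transport proteins with acyl-CoA synthetase activity. *Slc27a1* was lowest in mouse 1 of both genotypes (12.37 and 12.18) and lay between 12.64 and 13.02 in the other 4 mice, and its interval was wide, from -0.70 to 0.62. *Slc27a4* differed by 0.032 on its brighter probe, while its dimmer probe, above background in 4 of 6 mice, gave -0.16. The fatty acid carrier of the muscle cytosol, *Fabp3*, was at 17.53, 17.76 and 17.88 in Grsf1cKO and at 17.59, 17.60 and 17.82 in WT. Its difference of 0.054 (SE 0.13) was smaller than the SD of either genotype (0.18 and 0.13).

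The acyl-CoA synthetases trap fatty acids in the cell as acyl-CoA. *Acsl1*, the main form in muscle and fat, was at 15.83, 15.97 and 15.62 in Grsf1cKO mice and at 16.11 and 15.84 in WT 1 and WT 3, while its spot for WT 2 was marked as an outlier by the scanner software and left out. The difference was -0.17 (SE 0.16, 95% interval -0.57 to 0.24), resting on 2 WT mice. The dimmer *Acsl1* probe had values in all 6 mice, with WT 2 the highest at 13.17. It gave -0.093 (SE 0.14, p = 0.7 by the exact permutation test). *Acsl3* differed by -0.062, *Acsl4* by -0.020, *Acsl5* by 0.036 and *Acsl6* by -0.050, each with overlapping genotypes. In opposition to the synthetases, ACOT2 and ACOT13 hydrolyze acyl-CoA in mitochondria. *Acot2* was at 11.73, 11.79 and 11.81 in Grsf1cKO and at 11.88, 11.86 and 11.83 in WT. All 3 Grsf1cKO mice were below all 3 WT mice, but the difference was -0.083 (SE 0.078), and its 95% interval ran from -0.27 to 0.11. The exact permutation test over the 6 mice (2-sided here and throughout) gave p = 0.1, the smallest it allows with 3 against 3. *Acot2* has a near-identical neighbor, *Acot1*, so its probe may also read *Acot1*, which was at 8.96, 9.30 and 9.46 in Grsf1cKO and at 9.47, 9.64 and 9.59 in WT (difference -0.33, SE 0.15). *Acot13* differed by -0.085 (SE 0.10).

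Malonyl-CoA, the inhibitor of carnitine palmitoyltransferase 1, is made at the mitochondrial surface by ACACB and removed by MLYCD. *Acacb* was at 15.10, 14.95 and 14.92 in Grsf1cKO mice and at 15.35, 15.10 and 15.17 in WT mice. The highest Grsf1cKO value and the lowest WT value nearly touch. The difference was -0.21 (SE 0.11, 95% interval -0.47 to 0.044, p = 0.1 by the exact permutation test). It was -0.22 with the slide as a block, -0.26 within slide 2 and -0.13 on the deposited *z*-scores. The dimmer *Acacb* probe gave -0.14 (SE 0.21) with overlapping genotypes. *Mlycd*, the opposing enzyme, was at 14.88, 15.03 and 15.00 in Grsf1cKO and at 15.00, 15.04 and 15.16 in WT, and differed by -0.097 (SE 0.093).

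The bases that precede the start site are shown for *Ucp3* and *Cpt1a*, as examples with the receptor motif sought below, for *Acacb*, whose genotypes did not overlap, and for *Hadha* and *Hadhb*, which share their start region. Start regions (250 bases before and 50 after the start) were taken from RefSeq, build GRCm38.p6, for 31 of the 37 genes, in 36 windows. Nuclear receptors of fat metabolism such as PPARα and the estrogen-related receptors bind sites built on AGGTCA, and this motif was sought on both strands. It occurred in 8 of the 36 windows (22.2%) and in 16.3% of all 32851 windows of the same length. The 8 were those of *Ucp3*, *Cpt1a*, *Acacb*, *Acadm*, *Acadvl*, *Acsl6*, *Cd36* and *Echs1*. Of these genes only *Ucp3* and *Cpt1a* had positive differences on their brightest probes, and the others had negative ones. The windows of *Ucp2* and *Pdk4*, with positive differences, did not hold AGGTCA. The direct repeat of AGGTCA with any 1 base between its copies occurred in 0 of the 36 and in 0.0396% of all windows, and TATAAA occurred in 1 of the 36 and in 13.6% of all. The GC box GGGCGG occurred in 24 of the 36 (66.7%) and in 35.7% of all windows, and the median GC content was 60.7% in the 36 windows and 52.7% in all. Below, capitals mark AGGTCA or its reverse complement in *Ucp3* (chr7:100472741-100472990, plus strand) and *Cpt1a* (chr19:3323051-3323300, plus strand), TATAAA in *Acacb* (chr5:114165268-114165517, plus strand), and GGGCGG in the stretch between the head-to-head genes *Hadha* and *Hadhb* (chr5:30155003-30155252, read on the plus strand, that of *Hadhb*).
Ucp3: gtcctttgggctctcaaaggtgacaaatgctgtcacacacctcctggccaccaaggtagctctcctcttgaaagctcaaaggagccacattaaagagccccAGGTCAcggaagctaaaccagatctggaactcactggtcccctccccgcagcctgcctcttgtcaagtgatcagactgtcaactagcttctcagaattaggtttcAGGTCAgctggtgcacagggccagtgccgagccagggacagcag
Cpt1a: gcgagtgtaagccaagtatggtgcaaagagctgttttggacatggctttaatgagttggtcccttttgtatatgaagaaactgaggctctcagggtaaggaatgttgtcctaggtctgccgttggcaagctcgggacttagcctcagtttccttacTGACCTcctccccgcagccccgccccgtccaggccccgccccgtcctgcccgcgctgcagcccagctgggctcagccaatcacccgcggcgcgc
Acacb: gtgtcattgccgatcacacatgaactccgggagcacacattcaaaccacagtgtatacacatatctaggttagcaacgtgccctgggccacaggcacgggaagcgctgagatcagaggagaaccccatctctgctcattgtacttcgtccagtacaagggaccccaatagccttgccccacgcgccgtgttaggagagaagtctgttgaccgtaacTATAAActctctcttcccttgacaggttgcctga
Hadhb: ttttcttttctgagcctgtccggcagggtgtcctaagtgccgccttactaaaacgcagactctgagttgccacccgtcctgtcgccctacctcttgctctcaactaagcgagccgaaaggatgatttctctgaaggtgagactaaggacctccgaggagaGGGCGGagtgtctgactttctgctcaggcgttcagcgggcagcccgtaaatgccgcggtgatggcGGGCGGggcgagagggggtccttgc

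The *Ucp3* matches begin 149 and 44 bases before the start site, and that of *Cpt1a* begins 94 bases before it. TATAAA in *Acacb* begins 34 bases before the start. A match describes the letters of the window and is no evidence of binding.

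The carnitine shuttle is the entry gate of the matrix. CPT1 joins acyl groups to carnitine on the outer membrane, with CPT1B as the muscle form and CPT1A as the liver form that other cells also use. *Cpt1b* was nearly level, at 15.01, 14.96 and 14.84 in Grsf1cKO and at 15.05, 14.99 and 14.95 in WT. Its difference of -0.061 had a 95% interval of -0.28 to 0.16. *Cpt1a* was at 11.17, 11.62 and 11.78 in Grsf1cKO 1, 2 and 3 and at 11.01, 11.35 and 11.34 in WT 1, 2 and 3. Grsf1cKO 2 and 3 were above every WT mouse, Grsf1cKO 1 was not, and mouse 1 was the lowest of each genotype. The difference was 0.29 (SE 0.19, 95% interval -0.17 to 0.75, p = 0.3 by the exact permutation test). It was 0.28 with the slide as a block and 0.34 within slide 2. Leaving out Grsf1cKO 1 gave 0.47, past an unadjusted threshold of 0.05 by limma, while leaving out Grsf1cKO 3 gave 0.16 and leaving out WT 1 gave 0.18, not past it. The carrier of acylcarnitines in the inner membrane, *Slc25a20*, differed by 0.076 (SE 0.13), and *Cpt2*, which returns the acyl group to CoA in the matrix, by -0.018 (SE 0.094). *Crat*, which buffers acetyl-CoA as acetylcarnitine, was at 16.85, 16.98 and 16.63 in Grsf1cKO and at 16.69, 16.89 and 16.90 in WT, a difference of -0.0088 (SE 0.13).

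**Figure D2:**
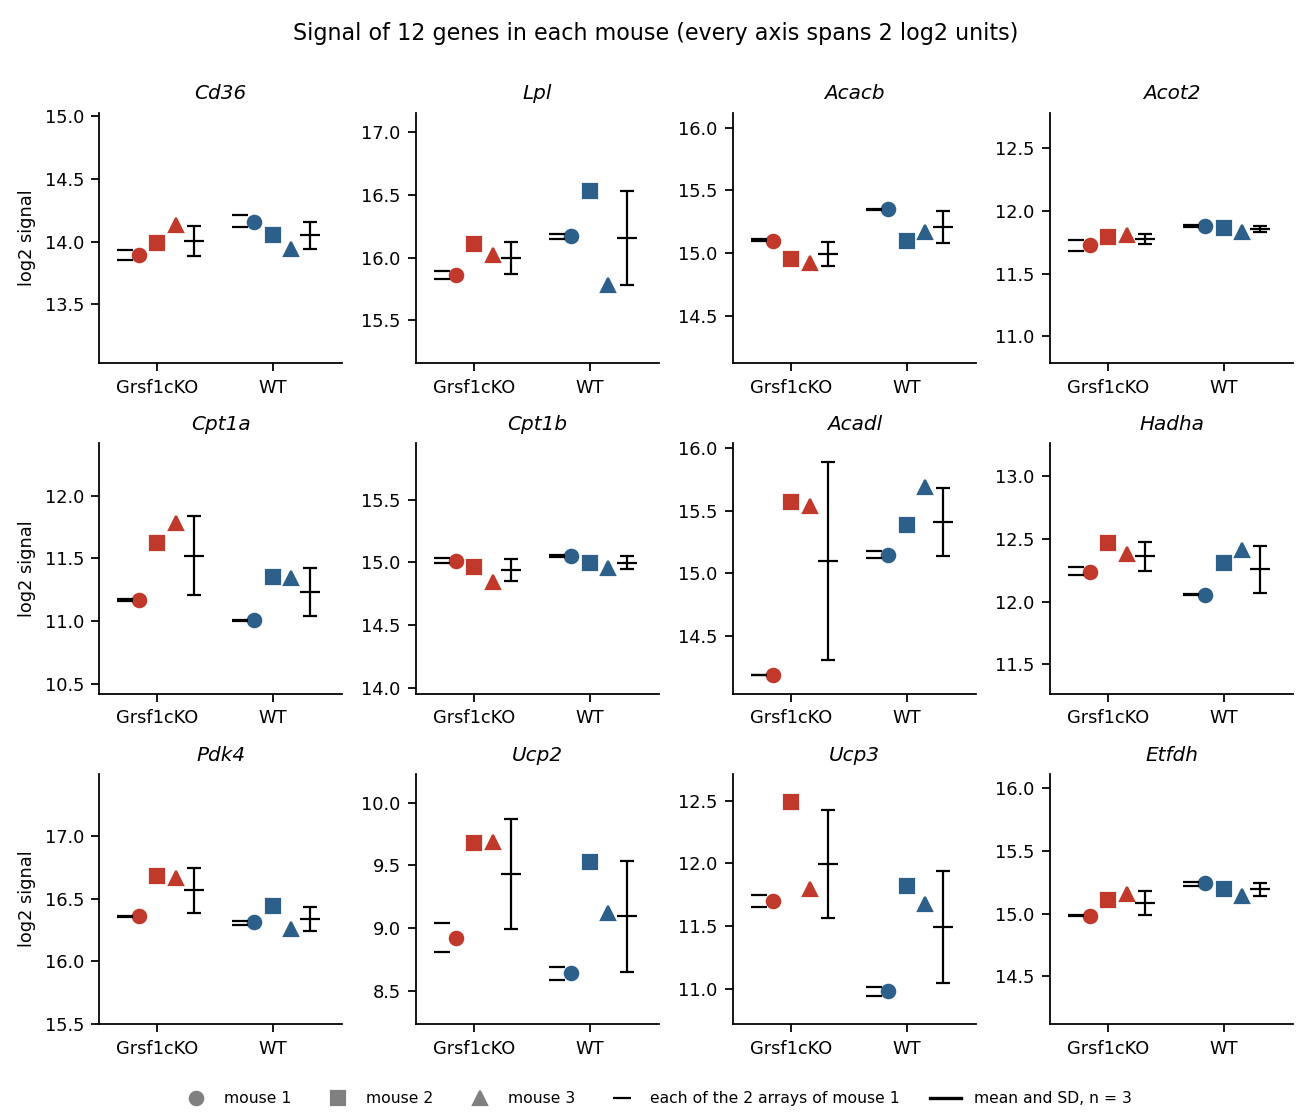
Log2 signal (vertical axis) of 12 of the genes in each Grsf1cKO and WT mouse, with one symbol per mouse number, the values of both arrays of mouse 1 as short lines, and the mean and SD of each genotype. The genotypes overlap in 10 of the 12 panels, all but *Acacb* and *Acot2*, and *Acadl* was at 14.19 on both arrays of Grsf1cKO 1.

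The acyl-CoA dehydrogenases open each round of oxidation, and each prefers a range of chain lengths. For very long chains, *Acadvl* lay between 16.53 and 16.60 in Grsf1cKO mice and between 16.52 and 16.70 in WT mice. For long chains, *Acadl* was at 14.19, 15.57 and 15.54 in Grsf1cKO 1, 2 and 3, and at 15.15, 15.39 and 15.69 in WT 1, 2 and 3. Grsf1cKO 1 stood apart from the other 5 mice, and it was at 14.19 on its first array and on its repeat array. With it, the difference was -0.31 (SE 0.40, p = 0.8 by the exact permutation test), and without it, 0.15, so the sign rests on that mouse. *Acadl* has a single probe on the array. *Acadm*, which acts on medium chains and is a textbook target of PPARα, was at 16.57, 16.79 and 16.67 in Grsf1cKO and at 17.00, 16.69 and 16.85 in WT. It was highest in WT 1, the genotypes overlap, and the difference was -0.17 (SE 0.12, p = 0.2 by the exact permutation test). *Acads*, for short chains, differed by 0.028 (SE 0.11).

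Of the 5 genes for the steps from hydration to thiolysis, 4 were below 0 and 1 above it, none by more than 0.13 in size, and with the deposited *z*-scores 2 were below 0 and 3 above. HADHA and HADHB are the subunits of the mitochondrial trifunctional protein, which takes long chains through the last 3 reactions, and 272 bases lie between the start sites of their genes, which are on opposite strands. *Hadha* was at 12.24, 12.47 and 12.38 in Grsf1cKO and at 12.05, 12.31 and 12.41 in WT, a difference of 0.11 (SE 0.13). *Hadhb* was at 16.78, 16.93 and 16.82 in Grsf1cKO and at 16.86, 16.85 and 16.97 in WT, a difference of -0.044 (SE 0.089). In both genes the genotypes overlap. For shorter chains, the hydratase gene *Echs1* differed by -0.12 (SE 0.093), the dehydrogenase gene *Hadh* by -0.13 (SE 0.10) and the thiolase gene *Acaa2* by -0.018 (SE 0.10). Unsaturated chains need *Eci1*, *Eci2* and *Decr1* to move or reduce their double bonds. *Eci1* was at 16.01, 16.07 and 15.96 in Grsf1cKO and at 16.06, 16.18 and 16.18 in WT, where 1 Grsf1cKO mouse lay above the lowest WT mouse (difference -0.13, SE 0.085). *Eci2* differed by 0.077 (SE 0.087) and *Decr1* by -0.027 (SE 0.10).

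Electrons leave the acyl-CoA dehydrogenases through ETF, made of the products of *Etfa* and *Etfb*, and reach ubiquinone through *Etfdh*. *Etfa* differed by -0.12 (SE 0.091) and its other 2 probes by -0.12 and -0.096, while *Etfb* differed by 0.032 (SE 0.082). *Etfdh* was at 14.98, 15.11 and 15.16 in Grsf1cKO and at 15.24, 15.20 and 15.14 in WT. Grsf1cKO 3 lay above WT 3, so the genotypes overlap, and the difference was -0.11 (SE 0.089). Across all 15 genes of oxidation and electron transfer, 11 were below 0 and 4 above, the median difference was -0.044, and 14 had an interval within 1.5-fold, all but *Acadl*. With the deposited *z*-scores 5 of the 15 were below 0, 9 above and *Etfa* at 0, so the genes of this group had no direction that held under each scaling. Averaged over these 15 genes, the signal relative to WT stood at -0.18, 0.026 and -0.041 in Grsf1cKO 1, 2 and 3, and WT 1, 2 and 3 stood at -0.038, -0.022 and 0.060. The genotypes overlap in this mean.

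The remaining 3 genes are induced in muscle when fat replaces glucose as fuel, and all 3 were above 0, by a median of 0.34, a sign that each kept under every alternative. PDK4 inactivates pyruvate dehydrogenase. *Pdk4* was at 16.36, 16.68 and 16.66 in Grsf1cKO and at 16.31, 16.44 and 16.26 in WT. Grsf1cKO 2 and 3 were above every WT mouse, and Grsf1cKO 1 was below WT 2. The difference was 0.23 (SE 0.12, 95% interval -0.067 to 0.53, p = 0.2 by the exact permutation test). It was 0.25 with the slide as a block, 0.29 within slide 2, 0.34 without Grsf1cKO 1 and 0.36 on the deposited *z*-scores (put back on a log2 scale with a common SD), the last 2 past an unadjusted threshold of 0.05 by limma. Without Grsf1cKO 2, Grsf1cKO 3 or WT 3 it was between 0.18 and 0.19, not past that threshold.

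UCP3 is a mitochondrial carrier of muscle whose gene follows fatty acid supply. *Ucp3* was at 11.70, 12.49 and 11.80 in Grsf1cKO and at 10.98, 11.82 and 11.68 in WT. Its difference of 0.50 (SE 0.30, 95% interval -0.24 to 1.25, p = 0.4 by the exact permutation test) was the largest of the set. Grsf1cKO 2 was the highest and WT 1 the lowest, and WT 2 lay above Grsf1cKO 1 and 3. *Ucp3* differed by 0.52 with the slide as a block and by 0.65 within slide 2. Without Grsf1cKO 2 it differed by 0.26 and without WT 1 by 0.25. UCP2 is a related carrier that immune cells also make. *Ucp2* was at 8.92, 9.68 and 9.69 in Grsf1cKO and at 8.64, 9.52 and 9.12 in WT, and its second probe ordered the 6 mice in the same way. The difference was 0.34 (SE 0.30, p = 0.5 by the exact permutation test), 0.36 with the slide as a block and 0.53 within slide 2. Without WT 1 it was 0.11, without Grsf1cKO 2 and without Grsf1cKO 3 it was 0.21, without WT 2 0.55 and without Grsf1cKO 1 0.60. The summed level of 10 macrophage markers, all detected in every mouse, was 16.04 in Grsf1cKO 3 and 15.08 to 15.39 in the other 5 mice, and its part in the *Ucp2* value of that mouse was not tested.

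**Figure D3:**
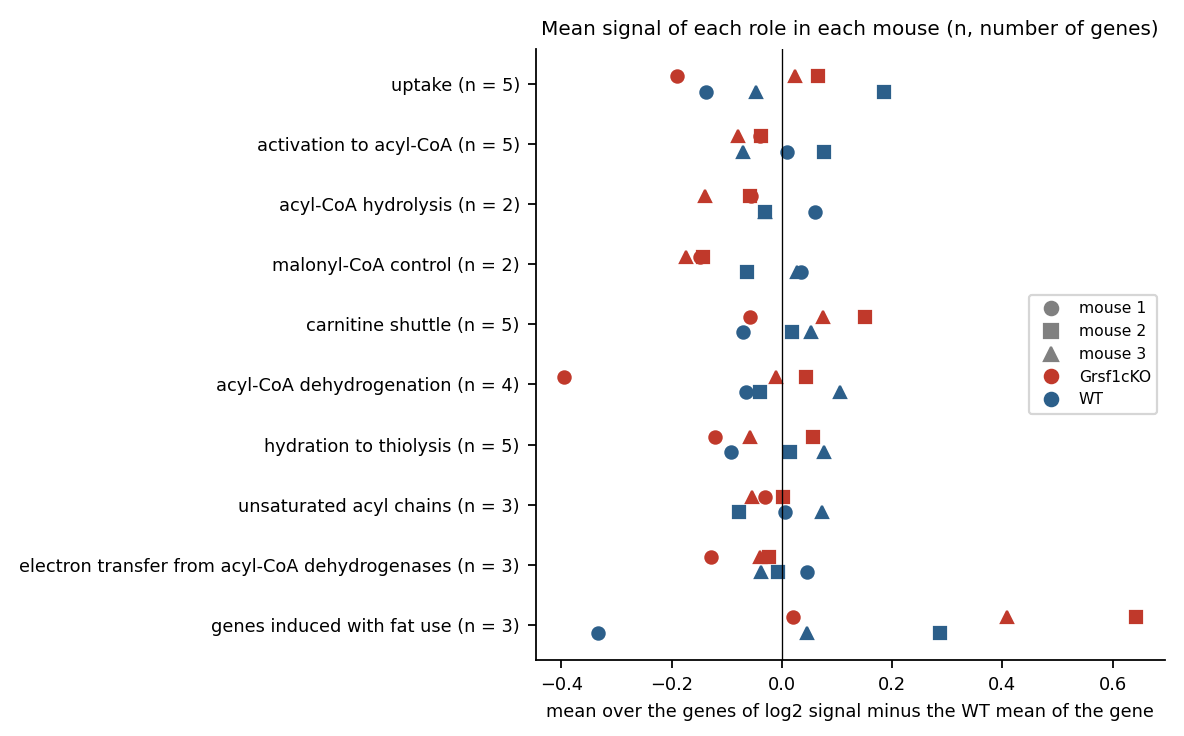
Mean over the genes of each role of log2 signal minus the WT mean of the gene (horizontal axis), for each Grsf1cKO and WT mouse. Here n is the number of genes, and the brightest *Acsl1* probe has no value in WT 2. The role of genes induced with fat use has the widest spread, from -0.33 in WT 1 to 0.64 in Grsf1cKO 2, and the genotypes overlap there. They do not overlap for malonyl-CoA control (-0.17 to -0.14 in Grsf1cKO, -0.063 to 0.035 in WT). Nor do they for acyl-CoA hydrolysis (-0.14 to -0.055 in Grsf1cKO, -0.031 to 0.061 in WT). Each of these roles has 2 genes, with *Acacb* in the first and *Acot2* in the second.

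Much of the spread in the set lay between mice of a genotype. Among the 36 genes with all 6 values, 13 (36.1%) were lowest in the mouse numbered 1 of both genotypes, where 17.8% of all tested probes were. The 13 were *Slc27a1*, *Slc27a4*, *Fabp3*, *Acsl3*, *Mlycd*, *Cpt1a*, *Slc25a20*, *Acadl*, *Acads*, *Hadha*, *Hadh*, *Ucp2* and *Ucp3*. On the first arrays alone, 12 genes were lowest in mouse 1 of both genotypes, where 12.3% of all probes were. The labels do not say what mice of the same number share. Averaged over all 37 genes, the signal relative to WT stood at -0.12, 0.076 and 0.0023 in Grsf1cKO 1, 2 and 3, and WT 1, 2 and 3 stood at -0.064, 0.046 and 0.019. Mouse 1 was the lowest of each genotype in this mean, and the genotypes overlap. The arrays of Grsf1cKO 1 differed by a median of 0.030 over the 37 genes (at most 0.35, for *Acsl5*), and those of WT 1 by 0.040 (at most 0.13).

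**Figure D4:**
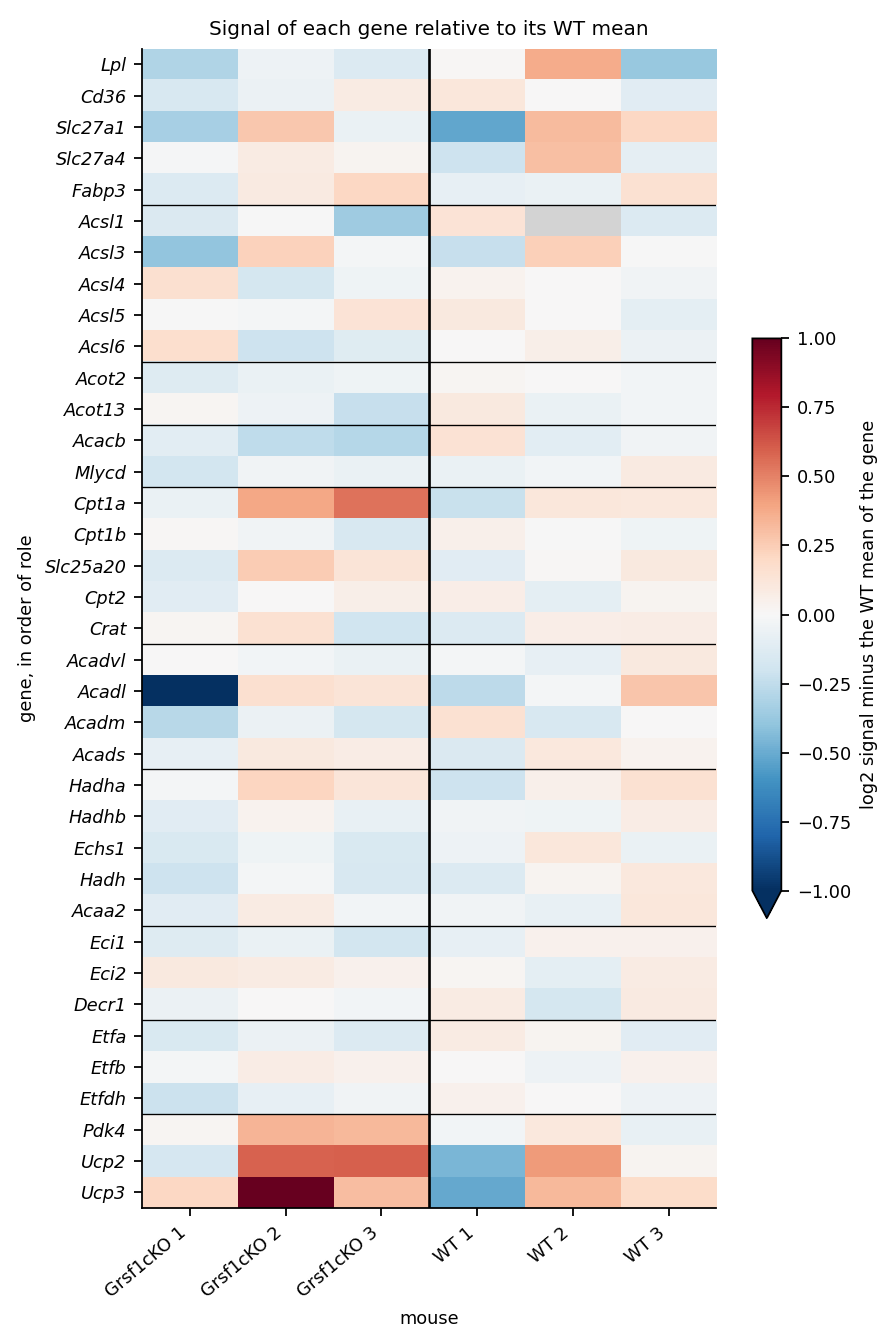
Log2 signal of each of the 37 genes (rows, in order of role) minus its WT mean, in each mouse (columns); red is higher, blue is lower, gray is missing. In 13 of the rows mouse 1 is the lowest of each genotype, *Acadl* in Grsf1cKO 1 lies beyond the scale at -1, and *Ucp3* in Grsf1cKO 2 is at the top of it.

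Fiber type markers also differed between mice. The summed level of 8 slow fiber markers, all detected in every mouse, was 18.27 in Grsf1cKO 3 and 17.90 to 17.99 in the other 5 mice, with *Tnni1*, the slow troponin I, at 14.33 in Grsf1cKO 3 and at 10.35 to 11.21 in the others. The 11 fast fiber markers summed to 22.05 to 22.08 in Grsf1cKO and to 22.06 in each WT mouse. Several of these probes lie near the top of the signal range, where quantile normalization nearly fixes the values (*Tnnt3* was at 19.13 in every Grsf1cKO mouse). Their sum can therefore show little of fast fiber content. *Myh7*, the slow myosin heavy chain, was low in Grsf1cKO 2, Grsf1cKO 3 and WT 1 (9.27 to 9.46) and high in the other 3 mice (11.33 to 11.38). The genotypes did not overlap for 2 of these 19 markers in the higher and 1 in the lower direction, where 3.08% and 6.27% of all probes did so, and the 3 are named here after their values were seen. The slow myosin light chain *Myl2* was at 13.46, 13.48 and 14.36 in Grsf1cKO and at 13.12, 13.23 and 13.04 in WT, a difference of 0.63 (SE 0.26, p = 0.1 by the exact permutation test), past an unadjusted threshold of 0.05 by limma and not past an adjusted one. *Myh2*, the myosin of type IIa fibers, was higher by 0.19 (SE 0.10) and *Myh4*, that of type IIb fibers, differed by -0.055 (SE 0.076), neither past that threshold. Grsf1cKO 3, the mouse with the highest slow fiber sum, was at either end for several genes on their brightest probes. It was the highest of the mice for *Cpt1a*, *Fabp3*, *Acsl5* and *Ucp2*. It was the lowest for *Crat*, *Acot13*, *Acacb*, *Cpt1b* and *Eci1*, and for *Acsl1* among the mice with a value. On the dimmer *Crat* probe WT 1 was the lowest (10.16), with Grsf1cKO 3 at 10.49. Every mouse is at an end for some genes, and these genes are named after their values were seen. The part of fiber type in these values was not tested. The summed levels of endothelial, fibro-adipogenic, erythroid, nerve and satellite cell markers overlapped between the genotypes.

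Other genes of lipid handling were followed in 7 lists. Of 150 genes listed, 147 had a probe and 142 were tested. By limma, 0 of the 142 had an adjusted p under 0.05, and at an unadjusted p under 0.05, 1 was higher and 1 lower (0.704% of the 142 each way, where 1.29% of all probes were higher and 2.96% lower). The genotypes did not overlap for 2 genes in the higher and 12 in the lower direction, that is 1.41% and 8.45% of the 142, where 3.08% and 6.27% of all probes did so. The median difference was -0.039. *Oxct1*, which lets muscle use ketone bodies, was the lower one. It was at 16.48, 16.60 and 16.55 in Grsf1cKO and at 16.96, 16.81 and 16.70 in WT, a difference of -0.28 (SE 0.10, adjusted p = 0.996 by limma). *Pdk3*, another pyruvate dehydrogenase kinase, was the higher one, at 7.01, 7.09 and 6.98 in Grsf1cKO and at 6.91, 6.42 and 6.71 in WT, a difference of 0.34 (SE 0.14, adjusted p = 0.996 by limma). Both lost this unadjusted call under several alternatives. With the slide as a block *Oxct1* differed by -0.29, still past that threshold, and *Pdk3* by 0.18, not past it, and within slide 2 they differed by -0.29 and 0.15, neither past it. Without WT 2, the lowest of the mice, *Pdk3* differed by 0.21, and it differed by 0.21 with normexp, not past the threshold in either. On the deposited *z*-scores *Oxct1* differed by -0.17 and *Pdk3* by 0.29, neither past that threshold.

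The list of 35 regulators had 34 tested genes and a median of -0.081, with 1 gene apart between genotypes in the higher and 5 in the lower direction (2.94% and 14.7% of the 34, against the same 3.08% and 6.27% of all probes). With 75th percentile scaling these counts were 1 and 4, and over the 142 genes 2 and 10. The shares over all probes were then 4.67% in the higher and 3.51% in the lower direction. *Ppargc1a*, the coactivator of oxidative metabolism, was at 12.63, 12.60 and 12.34 in Grsf1cKO and at 12.84, 12.85 and 12.66 in WT. Its genotypes did not overlap, with a difference of -0.26 (SE 0.12, p = 0.1 by the exact permutation test). By limma it was not past an unadjusted threshold of 0.05, but with an intensity trend and with the mean over its probes it was. It was -0.19 with the slide as a block and -0.17 without Grsf1cKO 3, not past that threshold. Of the fatty acid receptors, *Ppara* differed by -0.072 (SE 0.18) and *Ppard* by -0.089 (SE 0.10), and the sign of *Ppara* turned with the slide as a block and within slide 2. *Angptl4*, a lipoprotein lipase inhibitor that these receptors induce, was at 12.12, 12.59 and 12.39 in Grsf1cKO and at 11.77, 12.32 and 11.63 in WT. WT 2 lay above Grsf1cKO 1, and the difference was 0.46 (SE 0.22, p = 0.2 by the exact permutation test). It was 0.54 with the slide as a block, 0.66 within slide 2 and 0.67 without WT 2, each past an unadjusted threshold of 0.05 by limma, which it also passed with normexp and with an intensity trend. Leaving out each other mouse gave 0.33 to 0.59, not past it. The lists of carnitine supply (9 tested genes), peroxisomal oxidation (19) and lipolysis and lipid droplets (18) had medians of -0.0043, -0.014 and 0.013. Those of uptake and binding (12), activation and thioesterases (23) and mitochondrial oxidation (27) had medians of -0.079, -0.11 and -0.046. Genes apart in the lower direction numbered 4 in mitochondrial oxidation (14.8%), 2 in activation and thioesterases (8.7%) and 1 in lipolysis and lipid droplets (5.56%), against 6.27% of all probes. The lists of uptake, carnitine supply and peroxisomal oxidation had 0. With 75th percentile scaling the counts were 3 in mitochondrial oxidation, 0 in activation and 2 in peroxisomal oxidation, against 3.51%.

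**Figure D5:**
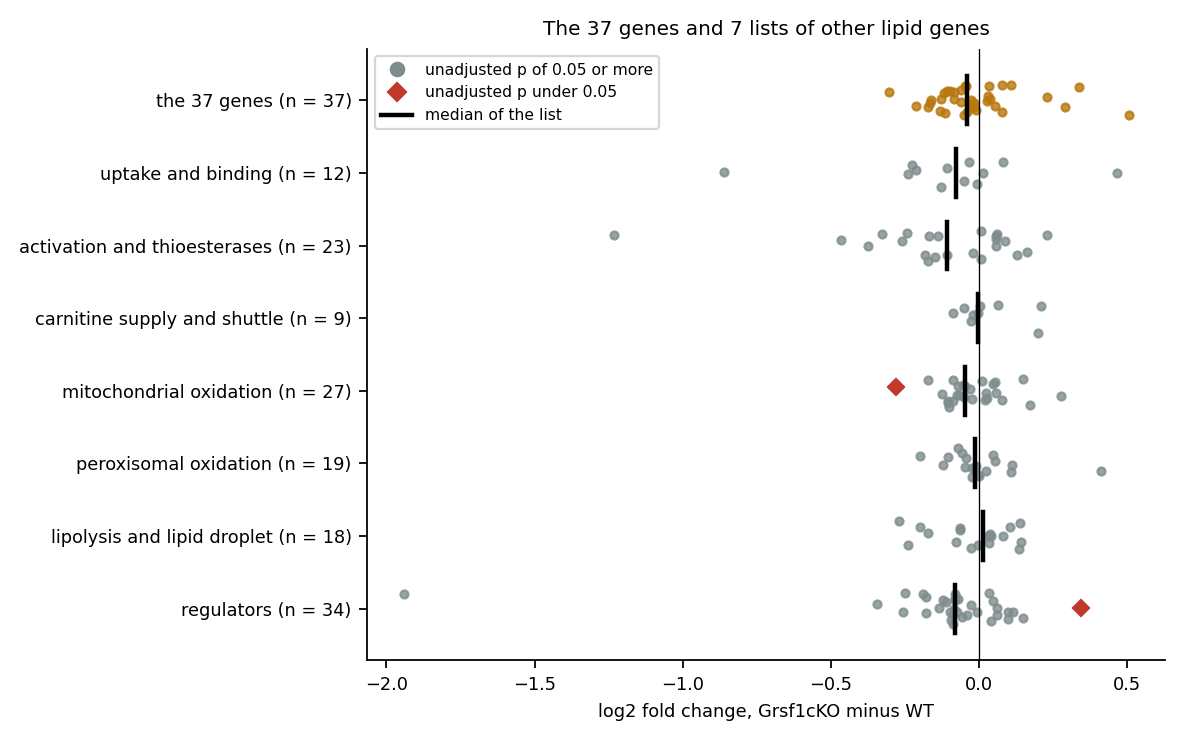
Difference between Grsf1cKO and WT on the log2 scale (horizontal axis) for the 37 genes and for the 142 tested genes of 7 other lists, 1 point per gene; the vertical position within a list is arbitrary, and black lines are medians. Diamonds mark *Oxct1* and *Pdk3*, and the medians of all lists lie between -0.11 and 0.013.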

How the data were processed

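Muscle RNA of 3 Grsf1cKO and 3 WT mice was measured on 8 Agilent arrays. The authors deposited the intensity of each spot from Feature Extraction 12.0.3.1, per the file headers (design on mm9), and a score per spot, a *z*-score of log2 signal within the array. Here log2 processed signal was used without control spots and outlier spots, quantile normalized, and averaged by probe and mouse. Tests covered probes detected well above background in 3 or more mice and with at least 2 values per genotype (limma 3.58.1, R 4.3.3, genotype only, Benjamini-Hochberg over 38888 probes). A GRCm38.p6 RefSeq table named 32994 of 56605 probes. The brightest probe stands for a gene. The genes, lists and rules for naming genes were chosen with earlier results of these data known. Alternatives covered normalization, background, *z*-scores, detection, repeat arrays, slide, replicate block, intensity trend, the methods' *z*-test, probe averaging and leaving out each mouse. Leaving out the repeat array of Grsf1cKO 1 was added after seeing the data. The code was tested on simulated data. The number of mice limits the precision.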

Additional observations from a re-analysis of the deposited data

How the results depend on the processing

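Under all 20 alternatives, 0 of the genes tested had an adjusted p under 0.05. These were 37 genes, or 36 without WT 1 and without WT 3, where the brightest *Acsl1* probe was not tested. The median difference ran from -0.071 to 0.014, within the spread between mice of a genotype. An adjusted p under 0.05 was reached by 958 of all 38888 probes with the methods' *z*-test, and by 0 to 3 probes in every other fit. The sign was kept by 14 of the 37 genes in every fit that tested them (6 above 0, 8 below). At an unadjusted p under 0.05, where the main count was 0 in both directions, the lower count was 1 with normexp (*Acacb*), 1 with an intensity trend (*Acacb*) and 3 with the methods' *z*-test, where 2.38%, 2.35% and 7.31% of all probes were lower. The higher count was 1 with the deposited *z*-scores (*Pdk4*), 1 with an intensity trend (*Pdk4*), 3 with the replicate block and 0 to 2 when a mouse was left out, the 2 being *Cpt1a* and *Pdk4* without Grsf1cKO 1, where 0.895%, 1.2%, 2.26% and 1.03% to 1.97% of all probes were higher. Genes whose genotypes did not overlap numbered 2 higher and 1 lower with the *z*-scores (1.95% and 5.76% of all probes), 3 higher and 6 lower within slide 2 (7.16% and 13.2%), 1 lower with the mean over probes (6.25%), and 0 to 5 higher and 3 to 8 lower with a mouse left out (5.98% to 7.99% and 11.4% to 13.4%). Fewer mice make such separation easier. For the other lipid genes the main count of 2 became 1 with the *z*-scores, 1 without a detection filter, 1 without the repeat array of Grsf1cKO 1, 4 with the replicate block, 6 with an intensity trend, 12 with the *z*-test and 1 to 5 with a mouse left out. Of all probes 4.25% passed with the settings of the report, and 3.99%, 3.94%, 3.58%, 6.2%, 3.55%, 10.8% and 4.2% to 5.47% in these fits in the same order. With 1 mouse left out the sign turned for 17 of the 37 genes. *Acadl* ranged from -0.54 to 0.15 with a mouse left out, turning above 0 without Grsf1cKO 1. *Ppara* was at 0.0011 with the slide as a block, at 0.047 within slide 2 and between -0.27 and 0.055 with a mouse left out, turning above 0 without WT 2. Other causes were not tested.

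The replicate numbers gave no pairing by the labels. Deviations of same-numbered mice correlated at 0.23, 0.097 and 0.10. Each mouse correlated best with its own number (for Grsf1cKO 2, 0.097 against 0.094 with WT 3). These values cannot show a pairing. Only mouse 1 of each genotype was averaged over 2 arrays. Deviations were taken from the mean of each genotype, so the 3 correlations are not independent. Of all probes, 17.8% were lowest in mouse 1 of both genotypes, and 12.3% on the first arrays alone, where no correlation was computed. With the replicate block 3 genes (*Ucp3*, *Ucp2* and *Cpt1a*) passed an unadjusted threshold of 0.05 by limma, where 2.26% of all probes were higher and 3.95% lower. *Angptl4* and *Ppargc1a* were among the 4 other lipid genes that passed it too, while *Oxct1* and *Pdk3*, with unchanged differences, did not. An adjusted threshold of 0.05 was passed by 0 genes of the set and by 0 of all 38888 tested probes.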
